A study of Noccaea goesingensis with 12 samples.

Results

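Roots take up nitrogen, phosphate and potassium through families of transporters, and 49 genes of this kind were followed in roots of *Noccaea goesingensis*, a nickel hyperaccumulator of the Brassicaceae. They form a list of *A. thaliana* identifiers, drawn up by family with earlier results of these data known. The list holds NRT1 and NRT2 nitrate transporters, nitrate and nitrite reductase, AMT ammonium transporters, and glutamine and glutamate synthases. It also holds PHT1 phosphate transporters, genes of the PHO1 family, *PHO2*, SPX genes and 6 genes of potassium and sodium transport (*AKT1*, *HAK5*, *SKOR*, *KC1*, *HKT1*, *SOS1*). It does not hold every gene of these families, and counts by family below are counts within the list. Of the 49 genes, 20 were found among the 5273 genes of the deposited tables, 17 in the table without Ni, 5 in the table with Ni and 2 in both. The other 29 were in neither table. The tables list only genes that the authors' test separated between the ecotypes at an unadjusted p-value under 0.05, so a gene that was not listed has no value here, and not being listed does not show equal expression.

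Plants of the serpentinite population (TM, metallicolous) and of the dolomite population (NTM, non-metallicolous) were grown from wild-collected seed, with Ni for 3 weeks or without it. The 12 root libraries fell into TM with Ni (2 libraries), TM control (4), NTM with Ni (3) and NTM control (3), each library from the roots of 5 plants according to the labels. These group sizes follow the sample titles and differ from the equal groups that the methods describe, and the replicate name of 1 TM library with Ni is ambiguous in its title. The sample labels name a mine dump substrate mixed with sand, whereas the methods describe sand and perlite. Each group is given as 1 value per gene, in FPKM, fragments scaled to gene length and to the reads of the library (the tables head these columns TPM, and which unit applies was not settled), so no replicate error stands behind any value, the depth behind it is unknown from these tables, and no test was possible. In the read statistics of the study, 1 of the 3 NTM libraries with Ni held far fewer aligned reads than the other 11 libraries, and its weight in the NTM value with Ni cannot be seen in a group value. Reads were aligned to the *A. thaliana* genome, so a gene of *N. goesingensis* is measured only as far as its sequence aligns there, and a difference between the ecotypes in expression cannot be told apart from one in alignment.

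As to the tissue, 10 root marker genes and 10 leaf marker genes (chlorophyll-binding proteins and Rubisco) were looked up. A marker that the authors' test did not separate between the ecotypes has no value here. The root markers therefore could not show whether the tissue was root. Without Ni, 1 root marker was listed (AT3G54220, 10.8 FPKM in TM and 18.5 FPKM in NTM) and 3 leaf markers. The leaf markers listed without Ni summed to 58.4 FPKM in TM and 170.8 FPKM in NTM, and none of them stood at 0. They were AT1G29910, AT1G29920 and AT1G29930, chlorophyll-binding protein genes close together on chromosome 1 (between 10472280 and 10479048). Their reads may be shared between them, so they are not separate markers. No Rubisco gene was listed in either state. With Ni, no root marker and 1 leaf marker (AT1G29920, 12.5 FPKM in TM and 35.9 FPKM in NTM) were listed. The listed leaf markers were thus lower in TM in both states, and their part in the differences below was not tested.

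As background, nitrate enters root cells through some low-affinity carriers of the NRT1 family and through high-affinity carriers of the NRT2 family. It is reduced by nitrate and nitrite reductase to ammonium, which glutamine and glutamate synthases build into amino acids. AMT proteins take up ammonium directly. Phosphate enters through PHT1 carriers, is released to the xylem by PHO1, and is kept in balance by SPX proteins, which sense the phosphate state, and by *PHO2*, which promotes the breakdown of phosphate transporters. In *A. thaliana*, many PHT1 and SPX genes are more strongly expressed when phosphate is scarce. Potassium enters through the channel AKT1, helped by its partner subunit KC1, and through the high-affinity carrier HAK5, is loaded into the xylem by SKOR, and sodium is handled by HKT1 and SOS1.

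In control roots, 14 of the 17 listed genes were lower in the TM ecotype than in the NTM ecotype (82.4%) and 3 were higher, beside 55.5% lower among all 4460 genes of that table. Among these 17, all 8 phosphate genes and all 5 genes of nitrate transport and reduction were lower. AT3G54700 and AT1G32450 turn to the other side when ratios are centred on the median of the table. The 3 higher ones were 1 ammonium transporter, 1 gene of the glutamine and glutamate synthases and *HAK5*. The ratio of TM over NTM, on the log2 scale with 0.1 FPKM added to both values, had a median of -0.79 over the 17 genes and -0.71 over all genes of the table. A log2 ratio below -1 was reached by 4 of the 17 genes and one above 1 by 0, whereas 60.2% of all listed genes passed either limit, 32.8% below -1 and 27.4% above 1. When the ratios were centred on the median of the table, 12 of the 17 genes were lower and 5 higher, with 1 below -1 and 3 above 1. No gene of the table had an absolute log2 ratio under 0.5, so that median lies among the lower genes and not near equal expression.

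**Figure D1:**
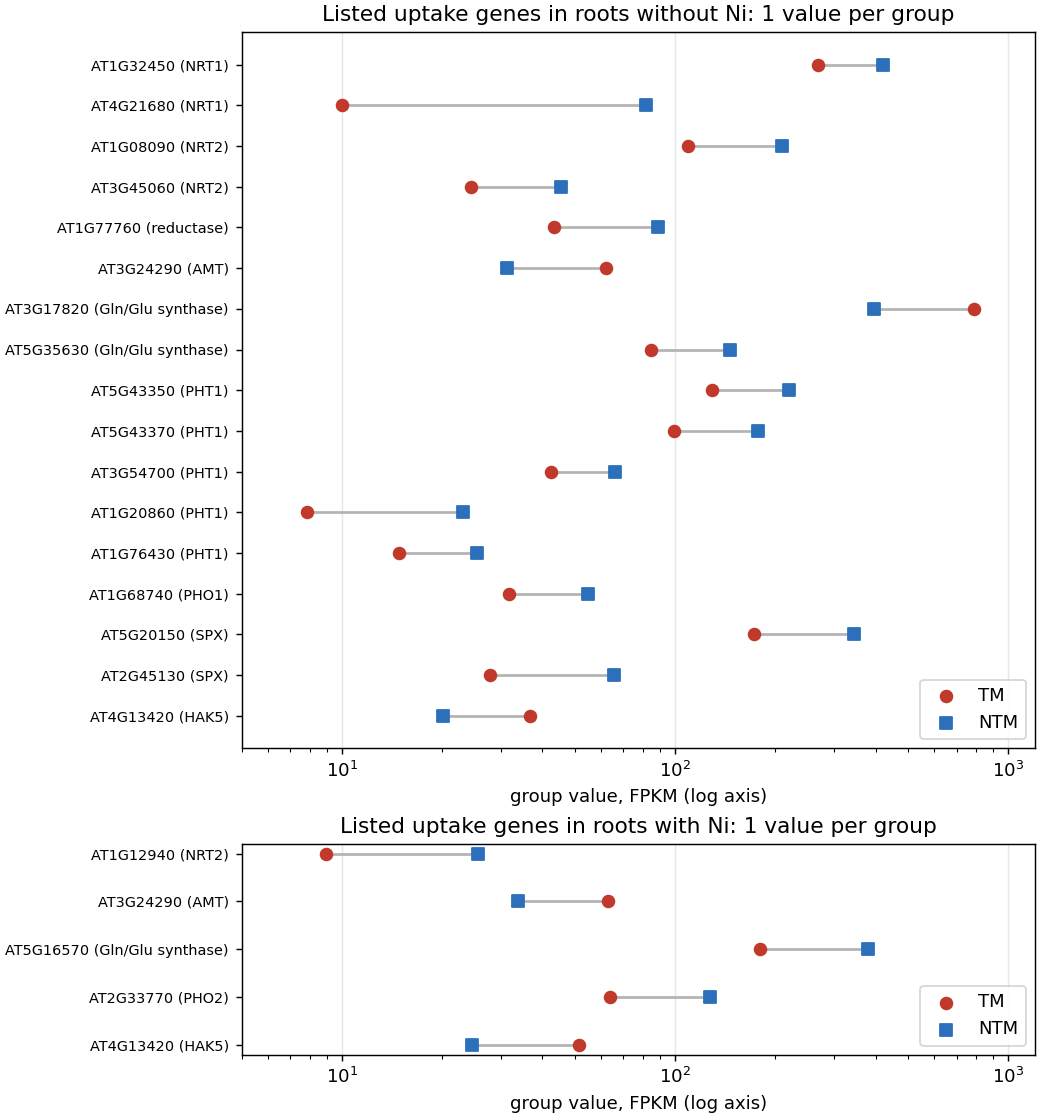
Group values (FPKM, log axis) of the uptake genes listed between the ecotypes, in roots without Ni (upper panel, 17 genes) and with Ni (lower panel, 5 genes). Red circles stand for TM and blue squares for NTM, each 1 value per group without error. In the upper panel TM lies left of NTM for 14 of 17 genes, and right of it for AT3G24290, AT3G17820 and *HAK5*. After centring on the median of the table, AT1G32450 and AT3G54700 would change sides.

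Within the list of uptake genes, the phosphate genes had the largest share of listed members without Ni, 8 of 14 (57.1%). The share was 8 of 29 (27.6%) for the nitrogen genes and 1 of 6 (16.7%) for the potassium and sodium genes. In the other pathway lists described below, it ran from 16.7% (nitrate signalling) to 50% (phosphate starvation enzymes), with 30% for phosphate signalling. What share of all measured genes was listed is unknown, so whether 57.1% is unusually large was not tested. Of the 8 PHT1 phosphate transporters followed here, 5 were listed without Ni and all 5 were lower in TM. Of these 5, only AT3G54700 turned to the other side, to 0.06, when ratios were centred on the median of the table, which lies among the lower genes.

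AT5G43350 and AT5G43370 were the most abundant of the listed PHT1 transporters. AT5G43350 (chromosome 5 from 17399789 to 17401949, as the deposited tables place it) stood at 128.8 FPKM in TM and 219.9 FPKM in NTM, a log2 ratio of -0.77. AT5G43370 (chromosome 5 from 17415772 to 17417798) stood at 99.2 FPKM in TM and 177.3 FPKM in NTM, a log2 ratio of -0.84. The loci of this pair are 13822 bp apart and belong to one cluster of closely similar genes in *A. thaliana*, so their reads may be shared between them and the values are uncertain one by one. The PHT1 gene numbered between them, AT5G43360, was not listed.

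AT1G20860 differed most among the PHT1 transporters, and at the lowest level. This gene (chromosome 1 from 7254007 to 7258677) had 7.86 FPKM in TM and 23.2 FPKM in NTM, a log2 ratio of -1.55, and 645 of the 4460 listed genes had a lower ratio. AT3G54700 (chromosome 3 from 20248425 to 20250070) had 42.3 FPKM in TM and 66.2 FPKM in NTM, a log2 ratio of -0.64. AT1G76430 (chromosome 1 from 28678935 to 28681995) had 14.9 FPKM in TM and 25.5 FPKM in NTM, a log2 ratio of -0.77. Across the 5 transporters, the log2 ratios thus ran from -1.55 to -0.64. AT2G38940 and AT2G32830, the remaining PHT1 genes followed here, were not listed.

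Beyond uptake, the PHO1 family includes the exporter that loads phosphate into the xylem. Of the 2 genes of this family followed here, 1 was listed. AT1G68740 (chromosome 1 from 25812449 to 25816657) stood at 31.7 FPKM in TM and 54.9 FPKM in NTM without Ni, a log2 ratio of -0.79, and AT3G23430 was not listed.

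Of the 3 SPX genes followed here, which encode phosphate sensors, 2 were listed without Ni. Both were lower in TM, also after centring on the median of the table. AT5G20150 (chromosome 5 from 6802372 to 6803625) stood at 172.8 FPKM in TM and 345.1 FPKM in NTM, a log2 ratio of -0.998 that stayed just short of -1. AT2G45130 (chromosome 2 from 18606410 to 18607853) stood at 27.8 FPKM in TM and 65.4 FPKM in NTM, a log2 ratio of -1.23. The NTM value was thus 2.00 and 2.35 times the TM value for these SPX genes, and between 1.56 and 2.95 times for the PHT1 genes. AT2G26660, the third SPX gene followed here, was not listed.

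The genes of nitrate transport and reduction were also lower in TM without Ni wherever they were listed, 5 of 17 genes. Of these 5, only AT1G32450 turned to the other side, to 0.07, when ratios were centred on the median of the table, which lies among the lower genes. Whether the listed NRT1 genes serve nitrate uptake was not tested. The largest difference of all 20 listed genes was that of AT4G21680, a member of the NRT1 family (chromosome 4 from 11511115 to 11519765). It had 10.0 FPKM in TM and 82.0 FPKM in NTM, 8.19 times as much, and a log2 ratio of -3.02, and 94 of the 4460 listed genes had a lower ratio. The other listed NRT1 gene, AT1G32450 (chromosome 1 from 11715150 to 11719970), had the smallest difference of the 17 genes, with 269.1 FPKM in TM and 419.9 FPKM in NTM and a log2 ratio of -0.64. Within one family, the ratios therefore covered the whole range seen among the lower genes. The other 4 NRT1 genes followed here (AT1G12110, AT1G69850, AT1G18880 and AT3G45650) were in neither table.

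Among the high-affinity NRT2 transporters, 2 were listed without Ni and 1 other with Ni, and each was lower in TM. AT1G08090 (chromosome 1 from 2524076 to 2526164) stood at 109.7 FPKM in TM and 209.7 FPKM in NTM without Ni, a log2 ratio of -0.93. AT3G45060 (chromosome 3 from 16477561 to 16479482) stood at 24.4 FPKM in TM and 45.4 FPKM in NTM without Ni, a log2 ratio of -0.89. These NRT2 genes differed by similar ratios at levels several times apart. With Ni, AT1G12940 (chromosome 1 from 4416405 to 4418590) stood at 8.95 FPKM in TM and 25.7 FPKM in NTM, a log2 ratio of -1.51. AT1G08100, AT5G60780, AT5G60770, AT5G14570 and the gene listed beside them, AT5G50200, were in neither table.

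For the reductases, 1 of 3 genes was listed. AT1G77760, a nitrate reductase gene (chromosome 1 from 29235803 to 29239445), stood at 43.4 FPKM in TM and 88.8 FPKM in NTM without Ni, a log2 ratio of -1.03, whereas AT1G37130 and AT2G15620 were in neither table.

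Ammonium transport went the other way, as far as it was listed. Of the 5 AMT genes followed here, AT3G24290 (chromosome 3 from 8801400 to 8802890) was listed in both states and was higher in TM in each. Without Ni it stood at 61.9 FPKM in TM and 31.4 FPKM in NTM, a log2 ratio of 0.98. With Ni it stood at 63.1 FPKM in TM and 33.8 FPKM in NTM, a log2 ratio of 0.90. AT4G13510, AT1G64780, AT3G24300 and AT2G38290 were in neither table. AT3G24300 is the AMT gene numbered next to AT3G24290. Reads may be shared between them, which was not tested, so the values of AT3G24290 are uncertain.

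The glutamine and glutamate synthases, which build ammonium into amino acids, did not share one direction. AT3G17820 (chromosome 3 from 6097414 to 6099595) was higher in TM without Ni, with 787.7 FPKM in TM and 396.2 FPKM in NTM and a log2 ratio of 0.99. Its TM value was the highest among the 17 genes listed without Ni, whereas in NTM AT1G32450 stood higher, and 18 of the 4460 genes of the table had a higher TM value. AT5G35630 (chromosome 5 from 13830429 to 13833542) was lower in TM without Ni, with 84.5 FPKM in TM and 146.6 FPKM in NTM and a log2 ratio of -0.79. AT5G16570 (chromosome 5 from 5421743 to 5424566) was listed with Ni instead and was lower in TM, with 179.6 FPKM in TM and 380.0 FPKM in NTM and a log2 ratio of -1.08. AT5G37600, AT1G66200, AT5G04140 and AT5G53460 were in neither table. AT1G48470, a glutamine synthase gene from the other lists described below, was higher in TM without Ni, at a log2 ratio of 0.99. In whole roots, fewer cells of a type and less RNA per cell cannot be told apart for any of these genes.

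Of the potassium and sodium genes only *HAK5* (AT4G13420, chromosome 4 from 7796850 to 7802251), the high-affinity potassium carrier, was listed, and it was higher in TM in both states. Without Ni it stood at 36.7 FPKM in TM and 20.1 FPKM in NTM, a log2 ratio of 0.87. With Ni it stood at 51.4 FPKM in TM and 24.6 FPKM in NTM, a log2 ratio of 1.06. *AKT1* (AT2G26650), *SKOR* (AT3G02850), *KC1* (AT4G32650), *HKT1* (AT4G10310) and *SOS1* (AT2G01980) were in neither table, so the channels that carry potassium at higher supply and the sodium transporters have no value here.

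**Figure D2:**
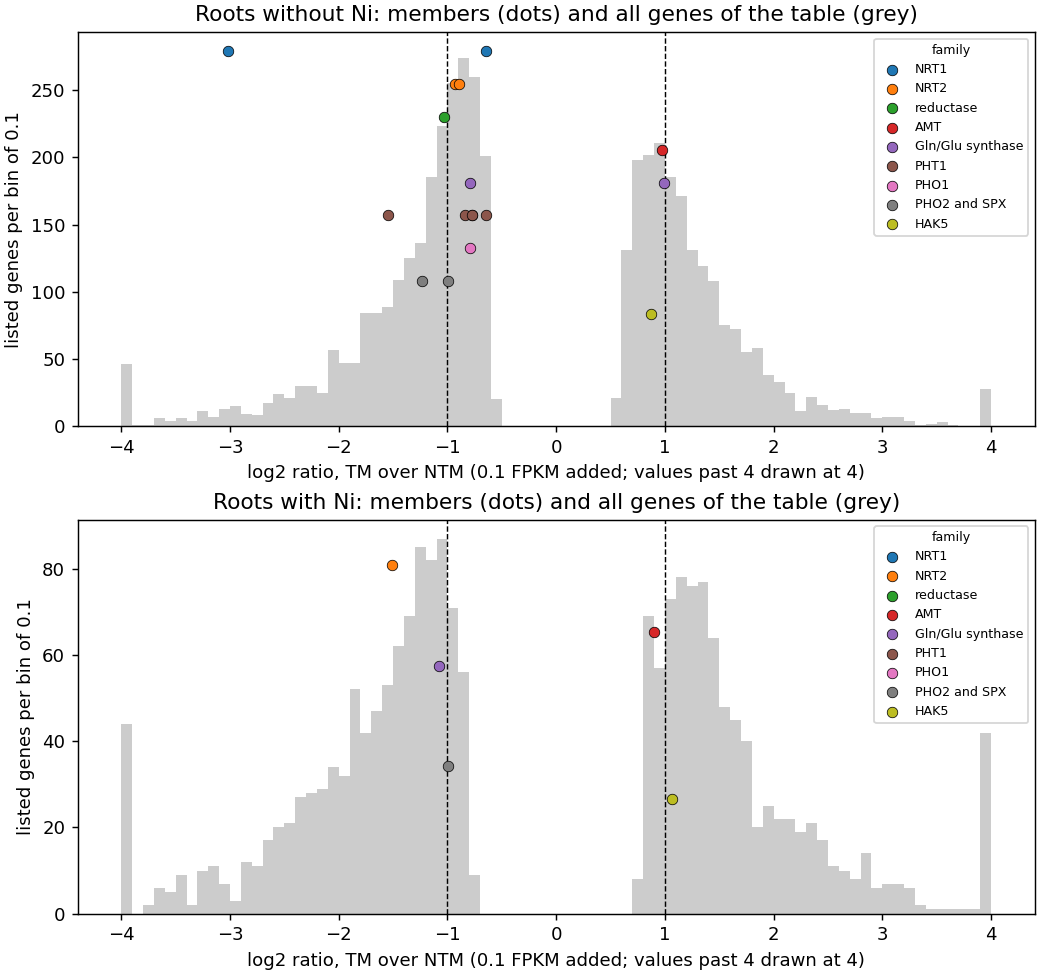
Log2 ratios of TM over NTM for the listed uptake genes (dots coloured by family, whose height has no meaning) above the distribution of all genes of the table (grey bars, number of genes per bin of 0.1), without Ni (upper panel) and with Ni (lower panel). Dashed lines mark -1 and 1. Without Ni, 13 of the 14 lower genes lie between -1.55 and -0.64, AT4G21680 lies at -3.02, and the centre holds no genes because the tables list only genes the authors called different. Centring on the median of the table would move AT1G32450 and AT3G54700 past 0.

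With Ni, 5 of the 49 genes were listed, 3 lower and 2 higher in the TM ecotype, beside 53.8% lower among all 1944 genes of that table. The 3 lower genes were AT1G12940, AT5G16570 and *PHO2* (AT2G33770, chromosome 2 from 14277558 to 14283040), a gene that in *A. thaliana* restrains phosphate uptake. *PHO2* stood at 63.7 FPKM in TM and 127.0 FPKM in NTM with Ni, a log2 ratio of -0.99. It was the only one of the 14 phosphate genes listed with Ni. The 2 higher genes were AT3G24290 and *HAK5*. A log2 ratio below -1 was reached by 2 of the 5 genes and one above 1 by 1, whereas 86.1% of all listed genes passed either limit, 46.8% below -1 and 39.4% above 1. With ratios centred on the median of the table (-0.91), the 3 genes stayed lower, and 0 of the 5 genes were below -1 and 2 above 1.

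None of the 15 genes listed in the control state alone can be followed into Ni, since the table with Ni holds no value for them. Of all 4460 genes listed without Ni, 25.4% were also listed with Ni, and of the 17 uptake genes 2 were. Whether the ecotypes differ less in these genes under Ni than in control roots was therefore not tested.

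AT3G24290 and *HAK5* had a value in all 4 groups, so only for them could Ni be set against control within an ecotype. Whether the tables with and without Ni were scaled together was not settled, and these ratios are a description. In the TM ecotype *HAK5* stood at 51.4 FPKM with Ni and 36.7 FPKM in control roots, a log2 ratio of Ni over control of 0.48, exceeded by 124 of the 1131 genes that both tables hold. In the NTM ecotype *HAK5* stood at 24.6 FPKM with Ni and 20.1 FPKM in control roots, a log2 ratio of 0.29, exceeded by 330 genes. Both ecotypes thus had the higher *HAK5* value with Ni, and all TM values were above all NTM values. AT3G24290 stood at 63.1 FPKM with Ni and 61.9 FPKM in control roots of TM, a log2 ratio of 0.03. In NTM it stood at 33.8 FPKM with Ni and 31.4 FPKM in control roots, a log2 ratio of 0.11. Neither gene passed an absolute log2 ratio of 1 in either ecotype, as 4.6% of the 1131 genes did in TM and 8.13% in NTM.

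**Figure D3:**
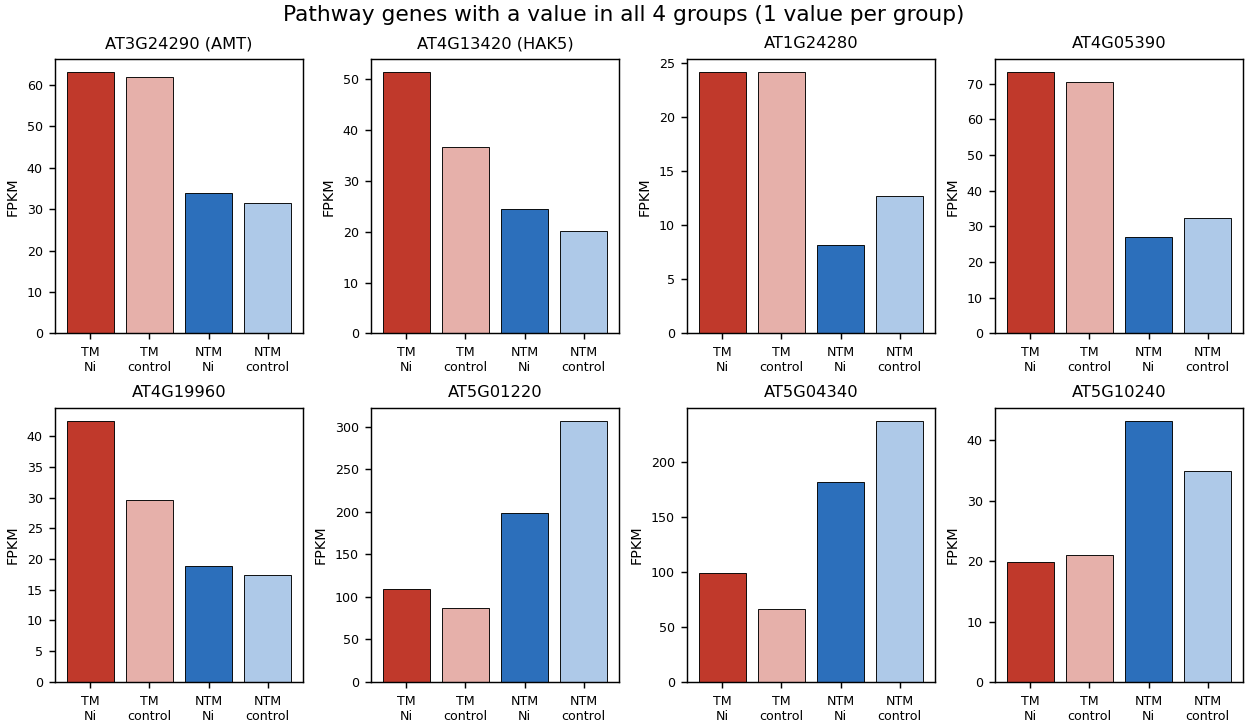
Group values (FPKM, axes from 0) of the 8 pathway genes listed in both tables, the uptake genes AT3G24290 and *HAK5* first, then 6 genes of the other pathway lists. Bars stand for TM with Ni, TM control, NTM with Ni and NTM control, each 1 value without error, and the values with Ni and in control roots come from different tables. Both TM bars are above both NTM bars for AT3G24290, *HAK5*, AT1G24280, AT4G05390 and AT4G19960, and below them for the other 3 genes (after centring on the median of the table with Ni, the ratios of AT5G01220 and AT5G04340 in that state would turn to 0.04 and 0.03).

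A further 104 genes of the same pathways were placed in 7 lists by identifier. Without Ni, 33 of them were listed (31.7%), 21 lower and 12 higher in TM. The lower share was 63.6%, beside 55.5% of all listed genes. With Ni 9 were listed, 4 lower and 5 higher. The lower share was then 44.4%, beside 53.8% of all listed genes. The list of phosphate starvation enzymes, which holds genes of membrane lipid replacement, phosphatases and a ribonuclease, had 7 of 14 genes listed without Ni, and all 7 were lower in TM, with a median log2 ratio of -1.53, as they were after centring on the median of the table. AT2G02990 stood at 16.6 FPKM in TM and 66.6 FPKM in NTM, a log2 ratio of -1.995. AT5G01220 stood at 87.0 FPKM in TM and 307.2 FPKM in NTM, a log2 ratio of -1.82. AT2G11810 stood at 38.2 FPKM in TM and 111.7 FPKM in NTM, a log2 ratio of -1.54. Of these 7 genes, 6 passed -1, beside 32.8% of all listed genes. With Ni, 2 genes of this list were found, with opposite signs. AT5G01220 had 109.1 FPKM in TM and 198.5 FPKM in NTM, a log2 ratio of -0.86 that turned to 0.04 after centring on the median of that table. AT2G16430 had 152.3 FPKM in TM and 70.0 FPKM in NTM, a log2 ratio of 1.12.

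The list of phosphate signalling genes also held PHT5 phosphate transporters. Of its 20 genes, 6 were listed without Ni, 4 lower and 2 higher in TM. The 2 higher ones were both PHT5 genes. AT4G22990 stood at 12.5 FPKM in TM and 6.37 FPKM in NTM, a log2 ratio of 0.96. AT4G11810 stood at 5.50 FPKM in TM and 2.76 FPKM in NTM, a log2 ratio of 0.97. AT5G04340 stood at 66.2 FPKM in TM and 237.8 FPKM in NTM, a log2 ratio of -1.84. AT5G13080 stood at 4.15 FPKM in TM and 12.0 FPKM in NTM, a log2 ratio of -1.51, and AT3G52190 at 63.1 FPKM in TM and 126.7 FPKM in NTM, 2.01 times as much. With Ni, AT5G04340 alone was listed from this list, at 99.5 FPKM in TM and 182.4 FPKM in NTM, a log2 ratio of -0.87 that turned to 0.03 after centring on the median of that table.

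The nitrogen lists held few listed genes. Of 18 nitrate signalling genes, 3 were listed without Ni and were lower in TM, with log2 ratios of -0.98 for AT5G63160, -0.76 for AT1G13300 and -0.70 for AT1G68670, the last of which turned to 0.00 after centring on the median of the table. With Ni, AT3G25790 was listed with the opposite sign, at 19.9 FPKM in TM and 7.40 FPKM in NTM, a log2 ratio of 1.42. Of 9 genes that support nitrate reduction (reductant supply, cofactor synthesis and nitrate storage or release), 2 were listed without Ni and both were higher in TM, unlike the nitrate reductase gene AT1G77760. AT4G05390 had log2 ratios of 1.12 without Ni and 1.44 with Ni, and AT1G24280 had 0.92 without Ni and 1.55 with Ni. AT5G40850, of the same list, was lower in TM with Ni at a log2 ratio of -1.23. Of 9 genes of ammonium and amide metabolism, 3 were listed without Ni, with log2 ratios of 0.99 for AT1G48470, -0.90 for AT5G65010 and -0.73 for AT5G10240. AT5G10240 was also listed with Ni, at a log2 ratio of -1.12.

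**Figure D4:**
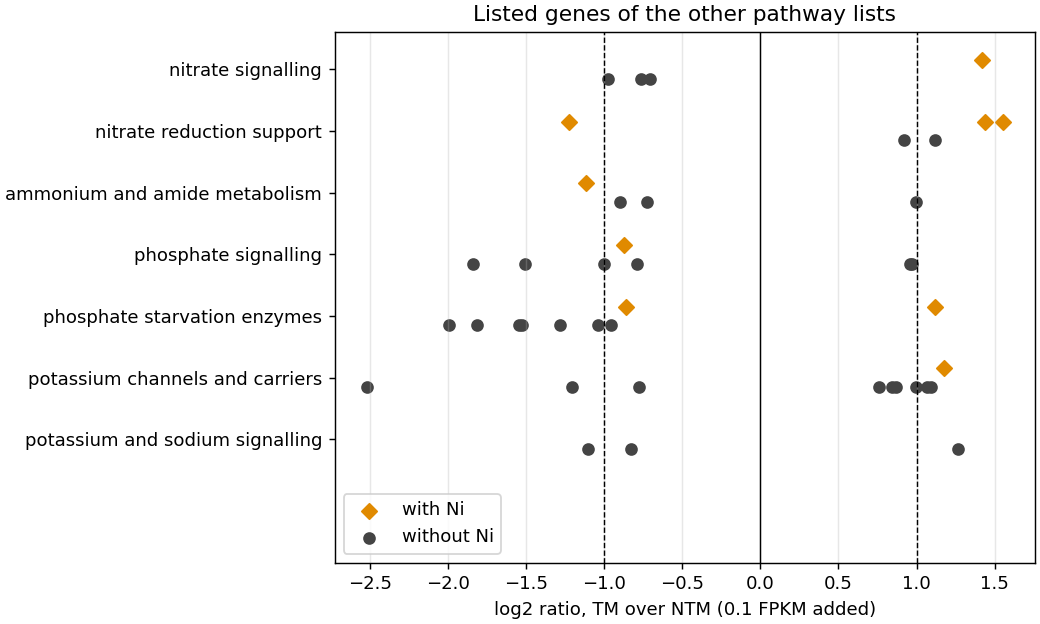
Log2 ratios of TM over NTM (x axis) of the listed genes of 7 other pathway lists (y axis), with Ni (orange diamonds) and without Ni (dark circles), 1 point per gene. Dashed lines mark -1 and 1. The 7 phosphate starvation enzymes listed without Ni all lie between -1.995 and -0.95, and the potassium channels and carriers lie on both sides of 0. Centring on the median of each table would move AT1G68670 without Ni, and AT5G01220 and AT5G04340 with Ni, past 0.

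Of the 23 other potassium channels and carriers, 9 were listed without Ni, 6 higher and 3 lower in TM (33.3% lower, beside 55.5% of all listed genes). Their median log2 ratio was 0.84, with no change of side after centring on the median of the table. AT5G46370 had 2.19 FPKM in TM and 13.1 FPKM in NTM, a log2 ratio of -2.52, and AT1G02510 had 2.35 FPKM in TM and 5.56 FPKM in NTM, a log2 ratio of -1.21. AT4G22200 had 5.09 FPKM in TM and 2.34 FPKM in NTM, a log2 ratio of 1.09. With Ni, AT4G19960 was listed and was higher in TM at a log2 ratio of 1.17, as without Ni at 0.76. Of the 11 genes of potassium and sodium signalling, 3 were listed without Ni, with log2 ratios of 1.27 for AT1G01140, -1.10 for AT5G24270 and -0.83 for AT4G17615, and none was listed with Ni.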

How the data were processed

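Roots of *N. goesingensis* were sequenced as 12 libraries in 4 groups, assigned by the sample labels. The authors trimmed reads with cutadapt 1.8.1, aligned them with HISAT2 2.1.0 to the *A. thaliana* genome (TAIR10 per the processing notes of the submitters) and ran Cuffdiff of Cufflinks 2.2.1. The deposited values are FPKM, scaled by the authors with geometric normalization, 1 value per group, under headers that read TPM. Whether that scaling spanned the tables with and without Ni was not settled. Which unit applies was not settled, and the name of the methods is used. The tables also hold the authors' log2 ratio and unadjusted p-value, which were not used beyond the check that every listed gene has a p-value under 0.05. Each of the 8 value columns belongs to 1 group. For the genes of the comparison tables, the single-ecotype tables held the same values, with 0 differing. Other genes were not part of that check.

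Ratios were computed as log2 with 0.1 FPKM added, with a threshold of 1. The alternatives were 1 FPKM added, at least 1 FPKM in both groups, centring on the median of the table and a threshold of 2. Centring on the midpoint of the medians of higher and lower genes was chosen after seeing the data. The ratio was tested on simulated data.

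Locus starts count from 0 in the tables and from 1 in the text, and a locus is the span given by the authors' table. The tables hold identifiers without gene names. Families and names of the 49 genes come from the definition of the list, and the other lists were assembled by identifier from general knowledge. Every listed member is named, and from each other list at least the 3 genes with the largest absolute ratio in a table. Members and lists were chosen by family or role, with earlier results of these data known. Sequences were not used here. Python 3.11.15, numpy 2.4.6, pandas 2.3.3 and matplotlib 3.10.9 were used.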

Additional observations from a re-analysis of the deposited data

Results flagged for a closer look

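Of the 8 pathway genes with a value in all 4 groups, 5 had log2 ratios of Ni over control of opposite sign in the ecotypes. The share with opposite signs among all 1131 genes with such values was not computed. The count of 5 is therefore not a result about these pathways. Across the 1131 genes, the ratios had a standard deviation of 0.51 in TM and 0.81 in NTM. Whether the values with and without Ni were scaled together was not settled. Each group has 1 value, so the difference between the ecotypes was not tested for any of the 5 genes. None of the 5 belongs to the 49 uptake genes. AT5G04340, of the phosphate signalling list, had 0.59 in TM and -0.38 in NTM, a difference of 0.97. AT5G01220, of the phosphate starvation enzymes, had 0.33 in TM and -0.63 in NTM, a difference of 0.95. AT1G24280 had 0.0017 in TM, a sign that rests on almost no change, and -0.63 in NTM, a difference of 0.63. AT4G05390 had 0.05 in TM and -0.26 in NTM, a difference of 0.32. AT5G10240 had -0.08 in TM and 0.31 in NTM, a difference of -0.39.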

How the results depend on the processing

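Raising the log2 limit to 2 kept 1 uptake gene without Ni and 0 with Ni, against 4 and 3 at the limit of 1. Centring on the median of the table moved the median log2 ratio of the listed uptake genes to -0.0869 without Ni and to -0.0865 with Ni. The uncentred medians were -0.79 and -0.99, and the table medians subtracted were -0.71 and -0.91. Centring on the midpoint of the medians of higher and lower genes subtracted 0.01 and -0.05 from the ratios and gave 5 and 3 genes past the threshold. With this centring, 14 of the listed uptake genes were lower in TM without Ni and 3 higher, as without centring. With 1 FPKM added, 25 of 26 ratios of the uptake genes moved by less than 0.1, the exception being AT4G21680 at -2.91, and at least 1 FPKM in both groups removed none of them. No paired analysis was possible because each group has 1 value, and for the same reason no library could be left out in turn, including the shallow NTM library with Ni.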
